A study of Mus musculus with 4 samples.

Results

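The promoters of 10 genes that encode a germline-gene repressor complex were examined for binding of KDM5C, the X-linked enzyme that demethylates histone H3 at lysine 4. The genes were E2f6, Tfdp1, Mga, Max, Pcgf6, L3mbtl2, Rnf2, Ring1, Cbx3 and Wdr5, out of 22367 annotated protein-coding genes. A gene was counted as having a peak when the midpoint of a called peak lay within 1 kb of any of its annotated transcription start sites (TSSs) in the mouse mm9 assembly.

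KDM5C was profiled by ChIP-Seq, the sequencing of DNA recovered with an anti-KDM5C antibody, in mouse epiblast-like cells (EpiLCs) at day 2 of differentiation. The cells came from male embryonic stem cells of the strain the labels give as C57BL/6J. The methods name another background for the mutant mouse strains and a mixed one for the Kdm5c strain, so the sources differ on this. In both genotypes the single X chromosome carried a truncated Tsix, the antisense RNA that represses Xist. XΔTsixY cells had wild-type Kdm5c (WT), and XΔTsix;ΔKdm5cY cells carried a deletion of the exons for the catalytic JmjC domain (KO), which leaves a mutant protein that is barely detectable. Each genotype had 1 immunoprecipitated and 1 input sample, 4 samples in all, and 1 list of peaks. The sources differ on the stage, since the labels describe the EpiLC conversion alone and the methods place day 2 beyond it, and the peak lists cannot settle it because they measure no expression. The sources differ on replicates too. For KDM5C, the methods give independent WT cell lines and a single KO sample, while the series text speaks of technical duplicates. The paper's supplement lists KDM5C reads at the Xist locus for more than 1 KO replicate.

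The WT list held 6916 peaks on assembled chromosomes and the KO list 44. The lists hold no read counts, so the reads behind each member peak are unknown. The paper's reporting summary states only a minimum number of reads for each sample. Each genotype is a lone list, so the values that follow have no spread between replicates, and WT and KO could not be tested against each other.

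The complex is the variant of Polycomb repressive complex 1 known as PRC1.6. E2F6 and its dimer partner DP1 (the product of Tfdp1) recognise E2F sites, while MGA pairs with MAX on E-boxes and also carries a T-box DNA-binding domain. PCGF6 and L3MBTL2 are among the subunits that set this complex apart from other forms of PRC1. RNF2 and RING1 are the ubiquitin ligases of histone H2A. CBX3 is a heterochromatin protein that reads methylated lysine 9 of histone H3, and WDR5 is a scaffold that also belongs to H3K4 methyltransferases. In pluripotent cells the complex is known for silencing genes of meiosis and the germ line.

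Stretches of the reference sequence are shown for the members with a WT peak. That of Rnf2, which had no peak and whose promoter also holds the E2F core, is shown beside them. The stretches of E2f6 (chr12:16817521-16817770, plus strand), Mga (chr2:119722714-119722963, plus), Pcgf6 (chr19:47125381-47125630, minus), Wdr5 (chr2:27370427-27370676, plus) and Rnf2 (chr1:153347954-153348203, minus) are the 250 bases that end just before the outermost TSS. That of Tfdp1 (chr8:13338392-13338592, plus) is the 201 bases centred on the summit of its stronger peak. Each is written 5′ to 3′ along the gene, in mm9, with capitals for the E2F core TCCCGC on either strand and the E-box CACGTG.
E2f6: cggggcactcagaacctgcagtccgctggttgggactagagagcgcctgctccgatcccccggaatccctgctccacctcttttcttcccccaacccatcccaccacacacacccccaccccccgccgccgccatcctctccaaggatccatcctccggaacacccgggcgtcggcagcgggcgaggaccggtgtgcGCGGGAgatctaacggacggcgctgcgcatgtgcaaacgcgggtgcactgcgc
Tfdp1: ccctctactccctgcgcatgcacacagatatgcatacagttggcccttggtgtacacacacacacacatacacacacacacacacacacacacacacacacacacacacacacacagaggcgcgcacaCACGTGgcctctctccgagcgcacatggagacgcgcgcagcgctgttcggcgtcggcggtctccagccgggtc
Mga: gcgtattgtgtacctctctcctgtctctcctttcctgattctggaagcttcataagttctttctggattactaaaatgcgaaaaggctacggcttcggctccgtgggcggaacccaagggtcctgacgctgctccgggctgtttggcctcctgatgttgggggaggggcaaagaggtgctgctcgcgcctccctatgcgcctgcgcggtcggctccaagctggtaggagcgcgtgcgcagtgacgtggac
Pcgf6: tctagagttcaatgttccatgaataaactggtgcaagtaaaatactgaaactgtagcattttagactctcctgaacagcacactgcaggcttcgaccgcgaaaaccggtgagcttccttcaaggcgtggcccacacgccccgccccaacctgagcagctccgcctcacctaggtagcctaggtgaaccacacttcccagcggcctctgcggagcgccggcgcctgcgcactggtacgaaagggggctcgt
Wdr5: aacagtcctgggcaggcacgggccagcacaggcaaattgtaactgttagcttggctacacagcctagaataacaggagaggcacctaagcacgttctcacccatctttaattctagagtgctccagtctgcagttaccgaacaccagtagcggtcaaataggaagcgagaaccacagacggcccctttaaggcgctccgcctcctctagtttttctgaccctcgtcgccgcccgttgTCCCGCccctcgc
Rnf2: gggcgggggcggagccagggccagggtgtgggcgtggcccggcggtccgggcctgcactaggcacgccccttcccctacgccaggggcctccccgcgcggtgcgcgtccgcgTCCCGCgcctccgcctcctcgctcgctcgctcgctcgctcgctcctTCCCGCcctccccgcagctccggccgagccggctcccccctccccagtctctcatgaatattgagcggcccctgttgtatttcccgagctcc
All of the E2f6, Mga, Pcgf6 and Tfdp1 stretches lay inside a WT peak, as did the 129 bases of the Wdr5 stretch next to the TSS. None of the Rnf2 stretch did. The summits at E2f6, Mga, Pcgf6 and Wdr5 lay downstream of the outermost TSS, so these stretches leave them out.

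KDM5C peaks were called at 5 of the 10 promoters in WT cells, those of E2f6, Tfdp1, Mga, Pcgf6 and Wdr5. Tfdp1 had 2 peaks, which gave 6 peaks in all. No WT peak was called at Max, L3mbtl2, Rnf2, Ring1 or Cbx3. In KO cells, 0 of the 10 promoters had a peak. Among all protein-coding genes, 24.0% (95% Clopper-Pearson interval 23.4 to 24.5%) had a WT peak and 0.0939% (0.0581 to 0.143%) had a KO peak by the same rule. The intervals cover counting error over genes only. All 10 members have CpG-rich promoters, with an observed to expected CpG ratio of at least 0.6 and a GC content of at least 50% over 500 bp on either side of the outermost TSS. Among the 9879 genes with such promoters, 44.1% (43.1 to 45%) had a WT peak. The members' 5 of 10 therefore lies close to what CpG-rich promoters show in general.

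Several of the member peaks ranked high in the WT list. The score of a peak is 10 times the −log10 of its q-value, and scores of at least 320 form the top 10% of the WT list. The promoters of E2f6, Tfdp1 and Mga reached that level, which makes 3 of the 10 members. Of all protein-coding genes 2.79% did, and of those with a CpG-rich promoter 5.53% did. Pcgf6, at 312, lay just below it. Over the 6 member peaks the median score was 574 and the median fold enrichment over input was 8.43, whereas the other 5271 WT peaks at annotated TSSs had a median score of 87 (quartiles 50 and 171) and a median fold enrichment of 3.74. No test was made of these differences, since the genes were put forward with earlier results of these data in view, so the high scores are a description of these 10 genes only.

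**Figure D1:**
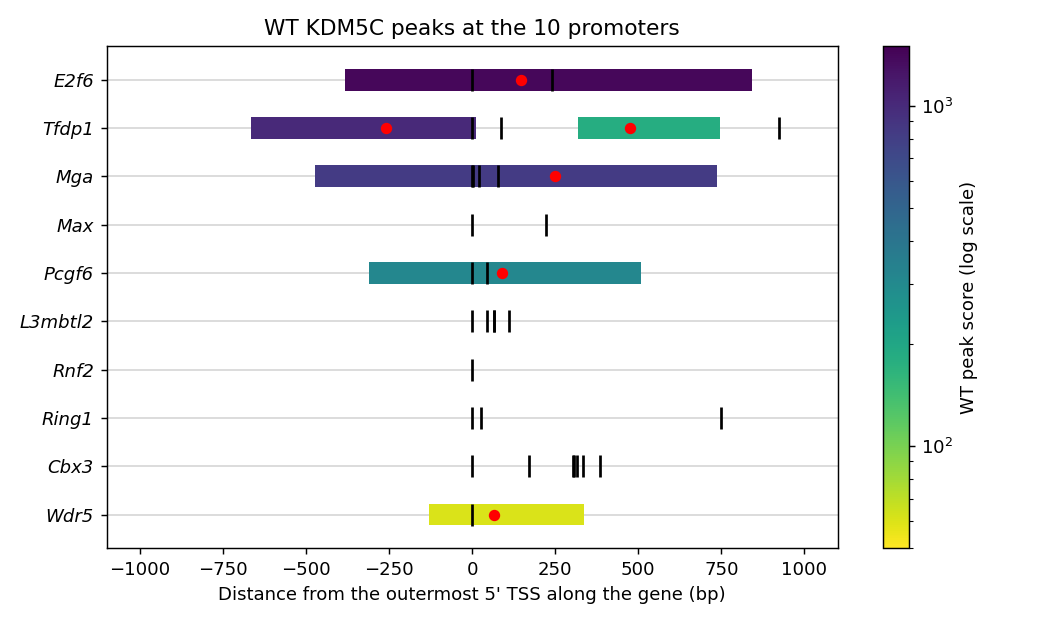
WT KDM5C peaks (bars, coloured by score on a log scale) at the 10 promoters, by distance in bp from the outermost TSS along the gene, with annotated TSSs of the gene as black ticks and summits as red dots. Bars span the TSS at E2f6, Mga, Pcgf6 and Wdr5, Tfdp1 has 2 bars, and Max, L3mbtl2, Rnf2, Ring1 and Cbx3 have none.

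E2f6 encodes the E2F family repressor that brings the complex to E2F sites. Its peak was the strongest among the members by score. It spanned chr12:16817388-16818613, scored 1412 at a fold enrichment of 13.2, and ranked 19 of the 6916 WT peaks by score. It covered both annotated TSSs of the gene, and its summit lay in annotated UTR, 146 bp downstream of the outermost TSS. By the highest peak score at a promoter, E2f6 ranked 20 among the 5357 protein-coding genes with a WT peak.

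Tfdp1, the gene for the DP1 partner of E2F proteins, had a pair of peaks that were 308 bp apart. The stronger (chr8:13338086-13338762) scored 1007 at a fold enrichment of 13.5, the highest fold enrichment among the member peaks. Its summit lay 259 bp upstream of the outermost TSS, in no annotated gene, and only its last bases reached that TSS. The summit fell within a run of 23 CA repeats, visible in the stretch shown above. The part of this repeat in the result was not tested. The weaker peak (chr8:13339071-13339497) scored 183 at a fold enrichment of 5.86, with its summit in an intron, 476 bp downstream of the same TSS. The KDM5C signal at Tfdp1 thus lay on both sides of the start of the gene.

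Mga encodes the large T-box and basic helix-loop-helix protein of the complex. Its promoter peak (chr2:119722491-119723700) scored 836 at a fold enrichment of 11.0 and ranked 116 in the WT list. It covered 4 of the 12 annotated TSSs of the gene, the ones at the 5′ end, and its summit lay in an intron 249 bp downstream of the outermost TSS. The peaks at E2f6 and Mga were also wide, with 1226 and 1210 bp, whereas 9.09% of WT peaks exceeded 1 kb and the median width was 524 bp.

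Max, the gene for the dimer partner of MGA and of the MYC proteins, had no WT peak within 1 kb. The nearest lay 125 kb away, at a TSS of Fntb (chr12:77938290-77938675, score 136). The 2 genes of the MGA and MAX dimer thus differed in the call, while the 2 genes of the E2F6 and DP1 dimer both had strong peaks.

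Pcgf6, which encodes the Polycomb group ring finger subunit particular to the complex, had a peak at chr19:47124871-47125690 that scored 312 at a fold enrichment of 5.1. It ranked 714 in the WT list and covered both annotated TSSs, with its summit in coding sequence 91 bp downstream of the outermost TSS. L3mbtl2, whose product carries MBT repeats that bind histone tails, had no peak at any of its 10 annotated TSSs. The nearest WT peak (chr15:81524275-81525119, score 45) lay 8245 bp from an internal TSS of L3mbtl2 and 60 bp from a TSS of Chadl.

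Neither ubiquitin ligase gene had a WT peak. For Ring1, the nearest (chr17:34168673-34169503, score 70) lay 7463 bp away, with its midpoint 40 bp from a TSS of Rxrb. A TSS of Mir219-1, on the same strand 390 bp from the outermost Ring1 TSS, had no WT peak either. For Rnf2, the nearest (chr1:153418018-153418936, score 71) lay 70.5 kb away at Fam129a.

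Cbx3, the gene for HP1 gamma, shares its promoter with Hnrnpa2b1, a gene for an RNA-binding protein on the opposite strand. The nearest Hnrnpa2b1 TSS lies 466 bp from the outermost TSS of Cbx3. Neither gene had a WT peak, and the nearest to Cbx3 lay 38.8 kb away. Wdr5 had the weakest member peak (chr2:27370548-27371013), which scored 61 at a fold enrichment of 2.75. That score lay below the WT median of 82 and above 35.8% of WT peaks. Its summit lay in annotated UTR, 67 bp downstream of the outermost TSS.

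**Figure D2:**
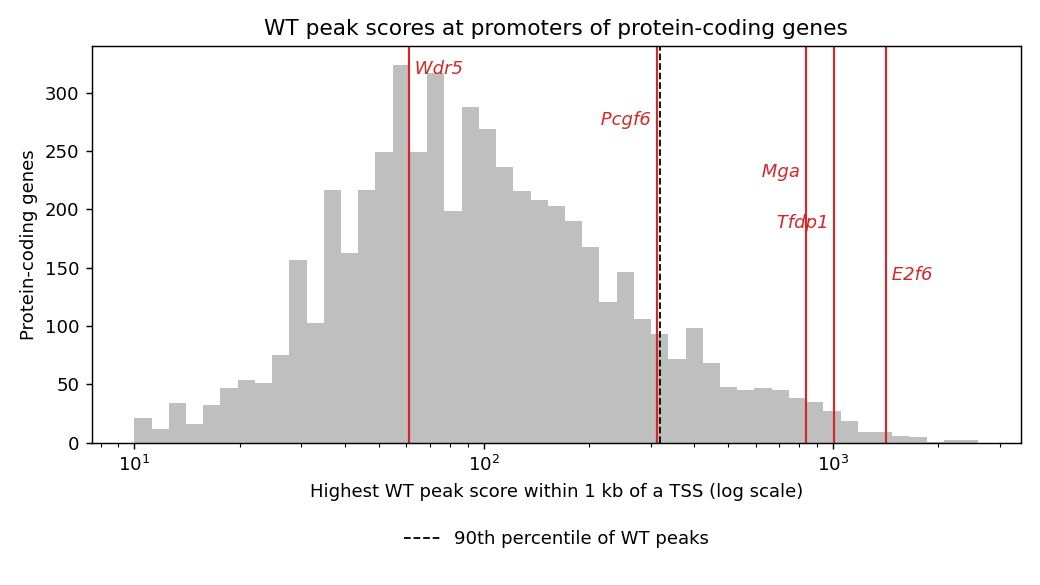
Histogram of the highest WT peak score within 1 kb of a TSS, on a log axis, for the 5357 protein-coding genes with a WT peak, with the members as red lines and the 90th percentile of WT peaks as a dashed line. Wdr5 (61) lies among the bulk of genes, Pcgf6 (312) at the dashed line, and Mga (836), Tfdp1 (1007) and E2f6 (1412) in the right tail.

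None of the 6 member peaks overlapped a KO peak. The closest KO peak to any member lay 2.21 Mb from Ring1, and chromosomes 1 and 19, which carry Rnf2 and Pcgf6, held no KO peak. Peaks were called in each genotype against a q-value limit, so a promoter without a KO peak may still hold signal below that limit. None of the 6 WT peaks had a TSS of another gene within 1 kb of its midpoint.

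Base composition overlapped between the members with a peak and those without, and its part in the result was not tested. The CpG ratio ran from 0.838 to 0.962 with a median of 0.873 in the 5 with a peak, and from 0.679 to 0.974 with a median of 0.801 in the 5 without, so the ranges overlap. GC content ran from 57.3 to 73.8% and from 56.1 to 73.2% in the same order. L3mbtl2 had the lowest ratio of the 10 and Cbx3, also without a peak, the highest. Like L3mbtl2, Max (0.784) and Ring1 (0.801) lay below every member with a peak, whereas Rnf2 (0.901) and Cbx3 did not. Among all CpG-rich promoters the median ratio was 0.807 with a WT peak and 0.773 without.

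**Figure D3:**
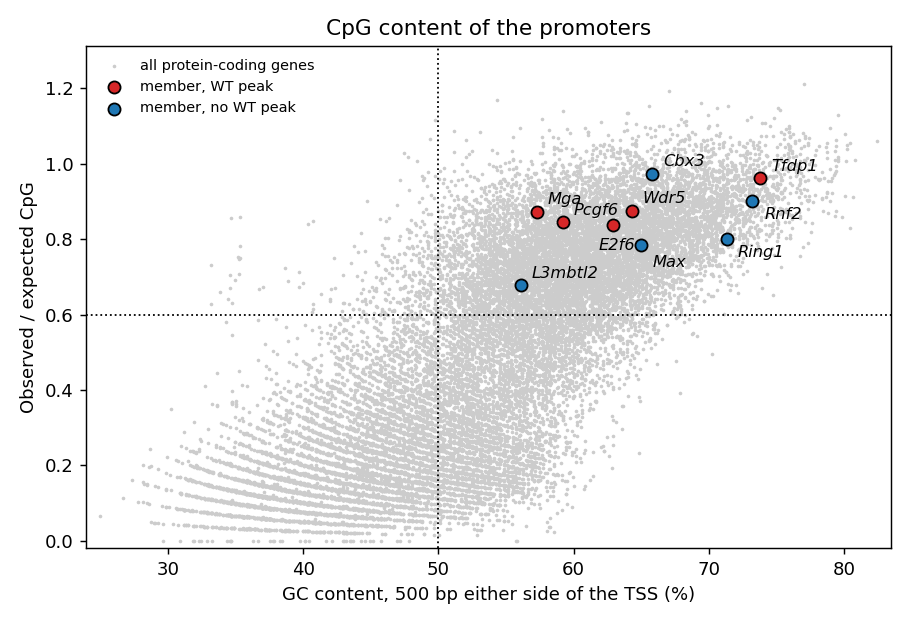
Observed to expected CpG ratio against GC content (%) over 500 bp on either side of the outermost TSS, for all protein-coding genes (grey) and the members with (red) and without (blue) a WT peak, with dotted lines at the limits for CpG-rich. All 10 members lie in the upper right, and the red and blue points overlap in range, from 0.679 at L3mbtl2 to 0.974 at Cbx3.

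The promoters were also searched on both strands for sequences that the complex's own DNA-binding subunits can read, over the 300 bases from 250 before to 50 after the outermost TSS. Sites were counted for each motif separately, so overlapping motifs would both count. The E2F core TCCCGC was present at E2f6, Tfdp1, Wdr5, Rnf2 and Cbx3, 5 of the 10, against 24.4% of all protein-coding promoters. CpG-rich promoters held it in 45% of cases with a WT peak and in 41.5% without, so the members' share lies near that of their promoter class. The E-box CACGTG was present at Tfdp1 and Max, against 7.78% of all promoters and, among CpG-rich ones, 14.4% with a WT peak and 8.65% without. The T-box site GGTGTGA was present at 0 of the 10, against 3.81% of all promoters and 3.45% and 2.64% of CpG-rich ones in the same order. Mga and Pcgf6 held none of the 3 motifs, also within 500 bases on either side of the TSS. Within 150 bases of a WT summit, the E2F core was present in 3 of the 6 member peaks (E2f6, Tfdp1 and Wdr5). Of the 5277 WT peaks at annotated TSSs, 45.5% held it. In the same window the E-box was present in 2 of the 6 (Tfdp1 and Wdr5), against 19.1%, and the T-box site in 0, against 3.94%. A match is a string of letters in the reference and does not show that a factor binds there.

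To set the members beside their relatives, 54 further genes in 7 lists were examined by the same rule. Of these, 25 (46.3%) had a WT peak and 1 had a KO peak. Among the 46 with a CpG-rich promoter, 23 (50%) had a WT peak, again close to the 44.1% of CpG-rich promoters in general. Scores of at least 320 were reached by 4 of the 54, namely Hdac2, Rybp, Sfmbt1 and Mbtd1. Beside them stand 2.79% of all protein-coding genes and 5.53% of those with a CpG-rich promoter.

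Among 6 genes for partners found with PRC1.6, 3 had a WT peak. Hdac2, a histone deacetylase gene, had a peak (chr10:36693570-36694901) that scored 2062 at a fold enrichment of 22.5 and ranked 5 among all protein-coding genes with a WT peak. It was also the only gene of the 7 lists with a KO peak (chr10:36693795-36694124, score 152 in the KO list), which overlapped the WT peak. Rybp, an adaptor that joins RNF2 or RING1 in variant PRC1, scored 633 at a fold enrichment of 11.9. Ehmt2, for an H3K9 methyltransferase, had a score of 54 at a promoter within 1 kb of a TSS of C2, and Hdac1, Ehmt1 and Yaf2 had no peak.

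Of 18 genes for subunits of other PRC1 forms, 5 had a WT peak, and none of the 18 had a score of 320 or more. Of 8 other E2F and DP genes, 5 had one (E2f2, E2f5, E2f7, E2f8 and Tfdp2), with scores from 23 to 141. E2f6 and Tfdp1 thus each had a score above those of the 5 family relatives with a peak. Among those relatives, E2f8 also had a TSS of Gm2788 within 1 kb. Of 11 genes of the MAX network, which regulate growth through E-boxes, 6 had a WT peak (Mycl1, Mxd3, Mxd4, Mnt, Mlx and Mlxip), with scores from 23 to 149, while Myc and Mycn had none. The Mnt peak (chr11:74651045-74651569) lay at an internal TSS, away from the outermost at 74644422. With the outermost TSS alone, 5 of the 11 had a peak. Mlxip also had a TSS of Gm15747 within 1 kb.

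Among 6 other genes for MBT-domain proteins, 3 had a WT peak, with scores of 611 at Sfmbt1, 327 at Mbtd1 and 161 at L3mbtl4. The Mbtd1 peak also lay within 1 kb of a TSS of Utp18. Cbx5 had a peak with a score of 48 and Cbx1 had none, these being the genes for the other HP1 proteins. Cbx5 also had a TSS of Hnrnpa1 within 1 kb. Of the 3 core partners of WDR5, Ash2l and Rbbp5 had weak peaks, with scores of 14 and 24, and Dpy30 had none. The Ash2l peak (chr8:26951032-26951454) lay at an internal TSS, away from the outermost at 26958166. With the outermost TSS alone, 1 of the 3 had a peak. Rbbp5 also had a TSS of 6030442K20Rik within 1 kb.

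**Figure D4:**
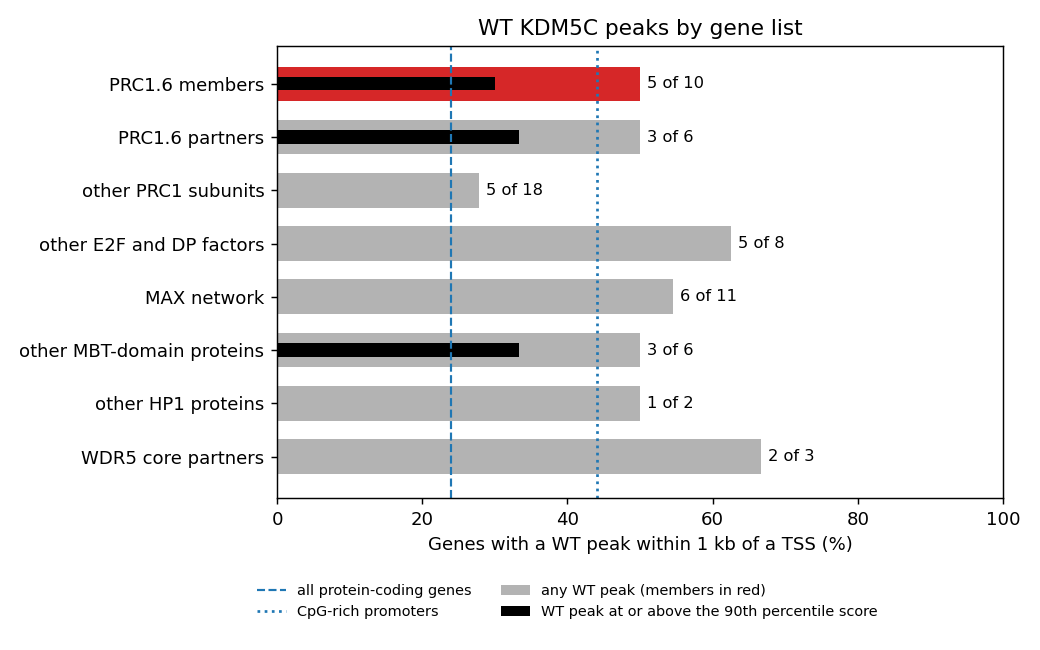
Percent of genes with a WT peak within 1 kb of a TSS, for the members (red) and 7 related lists (grey), with the share at or above the 90th percentile score as black bars and the shares of all protein-coding genes (24.0%, dashed) and of CpG-rich promoters (44.1%, dotted) as lines. The members' bar stands at 5 of 10, and black bars are present for the members, the PRC1.6 partners and the other MBT-domain proteins.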

How the data were processed

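KDM5C ChIP and input DNA from WT and KO cells were sequenced as single-end reads. Per the methods and the labels, the authors mapped reads to mm9 with Bowtie (1.1.2 in the processing notes, another version in the methods), kept unique matches with up to 2 mismatches, and called peaks with MACS2 2.1.0.20140616 against input, with limits of 0.1 on q and 1 on fold enrichment. By the peak names, WT replicates were called together and KO peaks came from 1 replicate, so the lists rest on unequal numbers of replicates. Unique mapping loses reads from repeated sequence. The deposited score is 10 times the −log10 of the q-value with decimals dropped. The authors also deposited a fold enrichment (a ratio over input), the −log10 of the q-value, the summit offset and the p-value on the same scale, which was not used. Folds were not compared between lists.

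Peaks on chromosomes 1 to 19, X and Y were assigned to GENCODE M1 TSSs on NCBIM37, the same assembly as mm9, with 1-based coordinates. All 10 members and all 54 related genes were found in that annotation. Their values, those of genes sharing a promoter, and those of related genes with a score at or above the 90th percentile or a KO peak were to be named, and the other related genes were named after their values were seen. The members and lists were chosen with earlier results of these data known. Alternatives changed the window, the score limit, the TSSs used, the point that places a peak, and the motif window. The assignment was tested on simulated data. Python 3.11.15, NumPy 2.4.6, pandas 2.3.3, SciPy 1.17.1 and matplotlib 3.10.9 were used. Values of 1 related gene are not reported here.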

Additional observations from a re-analysis of the deposited data

How the results depend on the processing

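Of 197 alternative values for 23 results, 161 did not move beyond their limits, 36 moved and 0 reversed. The count of members with a WT peak was 5 at scores of 20 or more, with windows of 500 bp, 2 kb and 5 kb, with protein-coding transcripts or the outermost TSS alone, with summits in place of midpoints, and where the peak had to overlap a TSS. Without scores below the WT median there were 4, and at or above the 90th percentile 3 members and 3 peaks, since a score limit removes peaks by construction. No alternative gave a KO peak at a member. The 25 related genes fell to 15 where a peak had to overlap a TSS, to 11 at the WT median and to 4 at the 90th percentile. The share of protein-coding genes with a WT peak was 21.8% at 500 bp, 25% at 2 kb, 27% at 5 kb, 23.2% at scores of 20 or more, 13% at the WT median, 2.79% at the 90th percentile, 22% with the outermost TSS and 17.2% with an overlap. For KO peaks it was 0.0492% with an overlap and at the WT median, and 0.00447% at the 90th percentile. With 500 bases on either side of the TSS, the E2F core was present at 8 members, the E-box at 5 and the T-box site at 1. In that longer window 47.3%, 17.0% and 11.7% of all protein-coding promoters held them, in the same order. Around WT summits the E2F core was present at 3 members. No value was had for Wdr5 at either score limit or for Pcgf6 at the 90th percentile, where no peak is left. No paired analysis was possible because the peak lists carry no replicate numbers, with 1 list for WT and 1 for KO.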

Other observations

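WT peaks that lie near a member and not at its promoter were listed out to 50 kb from its TSSs. The strongest lay 24.3 kb from Mga, at chr2:119697974-119699449, and scored 1884 at a fold enrichment of 15.9. It was stronger than the peak at the Mga promoter (836), was 1476 bp wide, had its summit in no annotated gene and lay 5427.5 bp from the nearest TSS, that of Gm13998. Its score was above that of 99.9% of WT peaks, and no KO peak overlapped it. The peak lists do not link it to Mga.

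Next to Pcgf6, a peak with a score of 1016 lay 35.7 kb away, 48 bp from a TSS of Nt5c2, and the summit also fell in coding sequence of Ina, a neurofilament gene. Next to E2f6, a peak with a score of 169 lay 10.4 kb away at Greb1. The other nearby peaks had scores of at most 75 and lay within 50 kb of L3mbtl2, Pcgf6, Ring1, Cbx3 and Wdr5. No KO peak lay within 50 kb of a member.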
